A study of Mus musculus with 8 samples.

Results

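The genes studied were 9 interferon-stimulated genes of the mouse brain, Irf7, Isg15, Usp18, Ifit1, Ifit3, Oasl2, Bst2, Rtp4 and Ifi27. They were chosen by name as representatives of the interferon response and make up 9 of the 22430 genes in a table of read counts, and all 9 passed the filter on low counts that left 16730 genes for testing. Poly(A) RNA had been sequenced from the brains of 8 male C57Bl/6JRj mice without any treatment or transgene, 4 of them young adult at 6 months (6m) and the other 4 aged at 24 months (24m), with 1 library per animal. The labels describe the tissue both as whole brain and as a brain hemisphere, so every value is an average over all brain cells and the vessels, membranes and blood that were dissected with them. In such samples, fewer cells of a type and less RNA per cell cannot be told apart.

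Library totals were 63460940 to 103462414 counts, with the highest in 24m replicate 1. Summed markers of neurons, astrocytes and oligodendrocytes were each at 2930 CPM or more in all 8 libraries (CPM, counts per 1e+06 counts). The library 24m replicate 1 stood apart in its immune markers, since the summed level of 10 B and plasma cell genes was 1167 CPM there and 50.2 to 86.7 CPM in the other 7 libraries. The fold change of each of the 9 genes is therefore given with and without this library, whereas the standardized averages and the likeness to other genes rest on all 8.

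Interferons are secreted proteins that warn cells of infection. Type I interferons bind the receptor pair Ifnar1 and Ifnar2, whose kinases activate transcription factors that bind the interferon-stimulated response element (ISRE) near the start of responsive genes. Interferon gamma acts on genes that carry a gamma-activated sequence (GAS). Within the 9 genes, Irf7 is itself a transcription factor that raises interferon production, Isg15 encodes a ubiquitin-like modifier, and Usp18 removes that modifier from proteins and dampens signalling at the receptor. Ifit1 and Ifit3 encode proteins that bind foreign RNA or its partners, Oasl2 belongs to the oligoadenylate synthetase family, Bst2 (tetherin) holds budding virus particles at the cell surface, Rtp4 is a chaperone of receptors that is also induced by interferon, and Ifi27 encodes a small membrane protein. In brain, such genes are best known from microglia, endothelial cells and choroid plexus exposed to interferon.

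All 9 genes are annotated as protein coding in GRCm39. Irf7 lies at chr7:140842619-140846398 (minus strand), Isg15 at chr4:156283883-156285303 (minus), Usp18 at chr6:121222848-121247877 (plus), Ifit3 at chr19:34560899-34566443 (plus) and Ifit1 at chr19:34618271-34632174 (plus). Oasl2 lies at chr5:115034997-115050295 (plus), Bst2 at chr8:71986895-71990114 (minus), Rtp4 at chr16:23337811-23432972 (plus) and Ifi27 at chr12:103392254-103407799 (plus). The letters GAAANNGAAA, the core of the ISRE, were searched on both strands in the 250 bases before the start of the canonical transcript of each gene in GRCm39. A match was present in 7 of the 9 genes (77.8%) and in 743 of 22281 listed genes (3.33%). Irf7 and Oasl2 had no match in this window. The stretches of 6 genes are printed here to show how the matches are arranged, 5′ to 3′ on the strand of the gene, cut where an annotated exon begins. Capitals mark the ISRE letters or their reverse complement.
Ifit1 (chr19:34618144-34618270, plus strand): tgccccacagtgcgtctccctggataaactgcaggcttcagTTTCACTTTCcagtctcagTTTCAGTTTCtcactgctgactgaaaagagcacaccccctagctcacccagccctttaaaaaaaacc
Ifit3 (chr19:34560749-34560898, plus strand): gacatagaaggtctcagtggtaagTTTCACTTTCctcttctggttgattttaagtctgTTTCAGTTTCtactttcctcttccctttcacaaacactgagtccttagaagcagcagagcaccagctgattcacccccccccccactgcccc
Usp18 (chr6:121222707-121222847, plus strand): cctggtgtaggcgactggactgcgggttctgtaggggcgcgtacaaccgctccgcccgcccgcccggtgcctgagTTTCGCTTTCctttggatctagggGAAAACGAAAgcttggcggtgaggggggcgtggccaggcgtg
Rtp4 (chr16:23428560-23428645, plus strand): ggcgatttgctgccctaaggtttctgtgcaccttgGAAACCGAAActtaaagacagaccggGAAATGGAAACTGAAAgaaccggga
Isg15 (chr4:156285304-156285453, minus strand): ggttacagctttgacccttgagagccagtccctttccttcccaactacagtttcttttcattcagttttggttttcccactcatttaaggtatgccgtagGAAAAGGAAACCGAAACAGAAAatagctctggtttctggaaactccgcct
Bst2 (chr8:71990115-71990264, minus strand): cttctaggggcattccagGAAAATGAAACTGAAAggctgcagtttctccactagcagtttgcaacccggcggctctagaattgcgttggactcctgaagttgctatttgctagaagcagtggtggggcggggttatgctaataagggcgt

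The neighbouring genes Ifit1 and Ifit3 on chromosome 19 both carried 2 reverse-strand matches, TTTCACTTTC followed by TTTCAGTTTC. In Isg15, Bst2 and Rtp4 neighbouring matches overlapped, and 3 of them spanned the bases 50 to 29 before the start of Isg15. Bst2 carried the only GAS match (TTCNNNGAA) of the 9 genes, at 138 to 130 bases before its start, where it overlaps the first ISRE match; 7.69% of listed genes had a GAS match in the same window. A match of letters is a description of the sequence and not a measured binding site. The group did not divide by these letters, since genes with 2 or 3 matches were found both among those that rose with age (Ifit1, Ifit3, Usp18, Rtp4) and among those that did not pass the test (Isg15, Bst2), and Oasl2 rose with no match.

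Between 6m and 24m, Ifit1, Oasl2, Usp18, Ifit3 and Rtp4 rose and no member fell (edgeR, where a call needed an adjusted p no higher than 0.05 and a fold change of 0.58 or more in size on the log2 scale). These 5 of 9 genes stand beside 25.3% of all tested genes called higher and 18.3% called lower. The median log2 fold change of the 9 genes was 0.78, and that of all tested genes was -0.0034. In Ifit1, Ifit3, Oasl2 and Usp18 each 24m library lay above each 6m library, a separation seen in 28.4% of tested genes. Levels below are CPM scaled by the trimmed mean of M values (TMM), listed for replicates 1 to 4 of each age.

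Irf7 is the regulator within the set. Its level was 6.75, 3.28, 4.63 and 6.69 CPM in 6m and 14.0, 7.54, 11 and 4.54 CPM in 24m. The ages overlapped, with 24m replicate 4 below 3 of the 4 young libraries and 24m replicate 1 more than double any of them. Its difference of 0.80 on the log2 scale (SE 0.34, n = 4 per age) did not pass the test (edgeR adjusted p = 0.066), and it was 0.55 (SE 0.30, adjusted p = 0.12) without 24m replicate 1. Without 24m replicate 4 it was 1.02 and passed (edgeR adjusted p = 0.0116). Irf7 lies on chromosome 7 and shares 63 exonic bases with Phrf1 on the opposite strand, and whether the counting used strand was not stated.

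Isg15 and Usp18, the modifier and the protease that removes it, gave different calls. Isg15 measured 5.01, 3.08, 3.77 and 4.74 CPM in 6m and 6.07, 3.57, 3.75 and 2.56 CPM in 24m. Its highest and its lowest library were both 24m, and the fold change was -0.06 on the log2 scale (SE 0.26, edgeR adjusted p = 0.86), or -0.31 (SE 0.19, adjusted p = 0.17) without 24m replicate 1. Usp18 measured 1.57, 1.3, 0.995 and 1.24 CPM in 6m and 3.95, 3.20, 3.46 and 2.30 CPM in 24m. All 4 aged libraries exceeded all young ones, a rise of 2.52-fold (log2 1.34, SE 0.20, edgeR adjusted p = 0.000477), and 2.36-fold (adjusted p = 0.00019) without 24m replicate 1. The difference between the changes of both genes was not tested. Isg15, on chromosome 4, has a related sequence in Gm9706 with 95.2% identity over 61.6% of its transcript, so its reads could be split between them.

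Ifit1 showed the greatest fold change of the 9 genes. From 28, 22, 17 and 16 reads in the young libraries it came to 171, 135, 119 and 131 reads in the aged ones, which scales to 0.427, 0.311, 0.282 and 0.242 CPM against 1.65, 1.69, 1.43 and 1.5 CPM. The lowest aged library was thus above 3 times the highest young one, the rise was 4.94-fold (log2 2.31, SE 0.20, edgeR adjusted p = 3.74e-05), and it was 4.92-fold (adjusted p = 5.29e-06) without 24m replicate 1. It was also the one member in which 24m replicate 1 was not the highest library. Ifit3 measured 14.9, 12.7, 10.7 and 14.5 CPM in 6m and 26, 21.6, 23.3 and 19.9 CPM in 24m. The ages did not overlap, and the rise was 1.72-fold (log2 0.78, SE 0.13, edgeR adjusted p = 0.000791), or 1.66-fold (adjusted p = 0.00028) without 24m replicate 1. Ifit3 and its neighbour Ifit3b are 97.2% identical over 97.2% of the Ifit3 transcript, and how reads that fit both were counted was not stated. Ifit3b was called higher as well, at a log2 fold change of 0.78 (SE 0.13).

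Oasl2 was nearly constant among young animals, at 2.30, 2.33, 2.59 and 2.30 CPM, and reached 8.42, 5.99, 7.19 and 5.68 CPM in aged ones. Every aged library had more than double the level of every young one. The rise was 2.87-fold (log2 1.52, SE 0.15, edgeR adjusted p = 6.17e-05), and 2.68-fold (adjusted p = 3.92e-06) without 24m replicate 1.

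Rtp4 measured 2.32, 1.47, 1.61 and 2.50 CPM in 6m and 4.08, 3.30, 3.04 and 2.36 CPM in 24m, so that only 24m replicate 4 fell among the young libraries. Its rise of 1.62-fold (log2 0.70, SE 0.22, edgeR adjusted p = 0.0209) was the smallest called. Without 24m replicate 1 the log2 fold change was 0.57 (SE 0.21, adjusted p = 0.0273), just under the threshold of 0.58, and without 6m replicate 2 or 6m replicate 3 the adjusted p was 0.0571 and 0.0596. Rtp4 shares 1129 exonic bases with Gm45338, a long noncoding RNA on the same strand that the table does not list.

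Bst2 and Ifi27, the membrane proteins, gave no difference between ages beyond the spread. Bst2 measured 14.8, 9.89, 11.3 and 12.9 CPM in 6m and 23.5, 16.3, 12.2 and 8.36 CPM in 24m. Its aged libraries ran from below the lowest to well above the highest young one (log2 0.31, SE 0.28, edgeR adjusted p = 0.36), and without 24m replicate 1 the log2 fold change was 0.03 (SE 0.21, adjusted p = 0.92). Ifi27 was the most abundant member, at 88.7, 80.8, 73.3 and 83.1 CPM in 6m and 112, 81.7, 73.6 and 61.9 CPM in 24m. The aged libraries again enclosed the young ones (log2 0.01, SE 0.16, edgeR adjusted p = 0.95), with -0.15 (SE 0.10, adjusted p = 0.2) when 24m replicate 1 was left out. Ifi27 shares 163 exonic bases with its relative Ifi27l2a on the opposite strand.

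**Figure D1:**
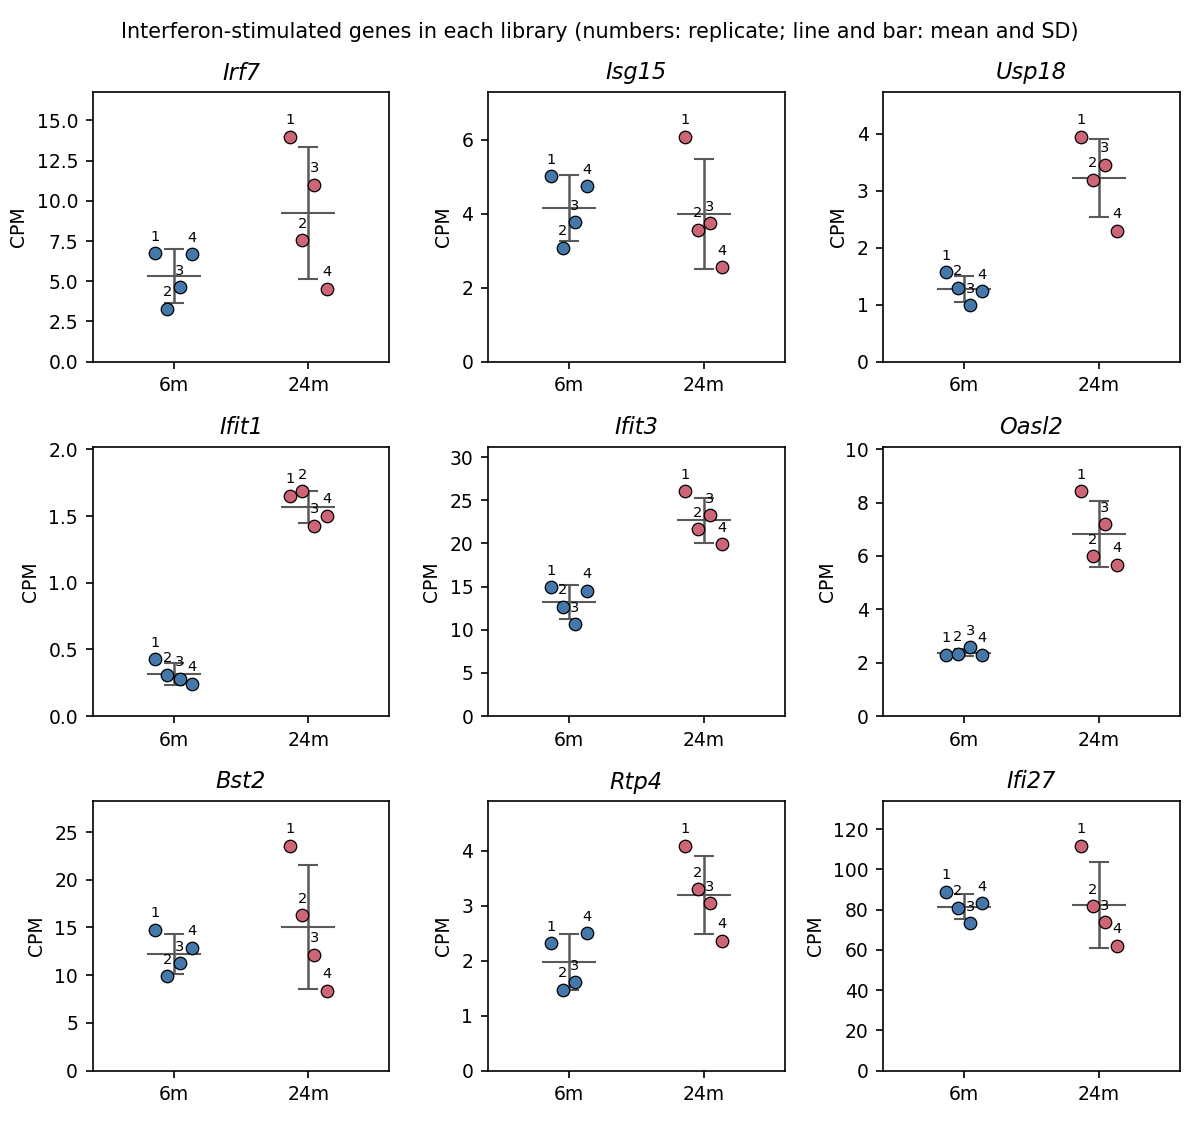
Level of each gene in CPM (vertical axis from 0) in the 4 libraries of 6m and of 24m, with the replicate number above each point and the mean and SD in grey. In Ifit1, Ifit3, Oasl2 and Usp18 the ages do not overlap, and 24m replicate 1 is the highest point of every panel except that of Ifit1.

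Leaving out 24m replicate 1 lowered the log2 fold change of all 9 genes, and it left 4 genes called higher, Ifit1, Oasl2, Usp18 and Ifit3, against 28.2% of the genes tested on 7 libraries. In the same 4 genes all aged libraries still lay above all young ones, which then held for 36.9% of tested genes. No member was called lower on 7 libraries either, where 21.6% of tested genes were. The median of the 9 genes was then 0.57. Expressed per kilobase of canonical transcript, so that genes can be compared, the mean 6m levels ran from Ifi27 (33.9 CPM per kilobase) through Bst2 (15.1), Ifit3 (6.31), Isg15 (5.31), Irf7 (2.23), Rtp4 (1.24), Oasl2 (0.762) and Usp18 (0.717) to Ifit1 (0.0425). The genes with the 3 lowest levels per length at 6m had the 3 largest log2 fold changes, and the genes at the top of the order, Ifi27 and Bst2, were not called. The 6m level is also the base of the fold change, so the 2 orders share values and nothing is concluded from their match.

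**Figure D2:**
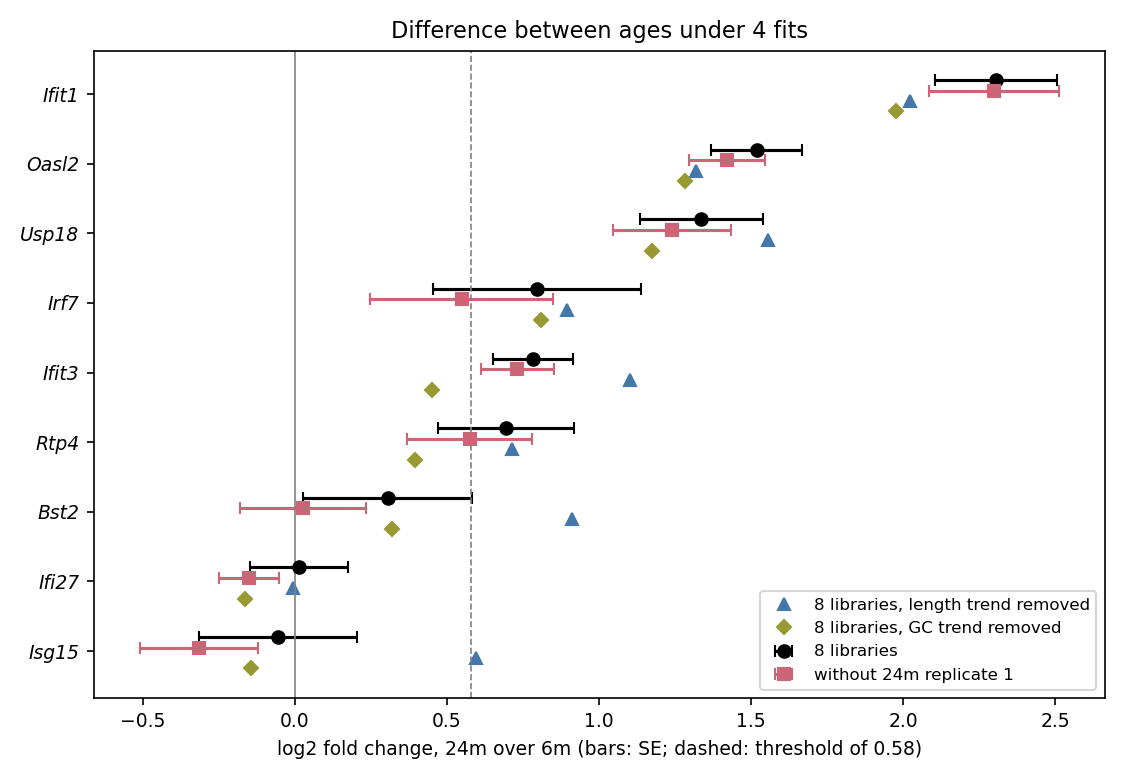
Log2 fold change of 24m over 6m for each gene (horizontal axis) from all 8 libraries (black, SE bars), without 24m replicate 1 (red, SE bars) and with the trend over length (blue) or GC content (olive) removed, beside 0 and the threshold of 0.58. Ifit1, Oasl2 and Usp18 stay right of the threshold in each, whereas Isg15 lies left of 0 in 3 of them and at 0.60 with the length trend removed.

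Fold changes in these libraries moved with transcript length, and the 9 genes span a wide range of it. Over all tested genes the median log2 fold change was -0.76 for exonic lengths under 1000 bases, -0.65 from 1000 to 2000, -0.30 from 2000 to 4000, 0.06 from 4000 to 8000 and 0.41 above that. Isg15 (782 exonic bases) and Bst2 (1214) fall in the first and second of these classes, whereas Ifit1 (7421) and Oasl2 (6374) fall in the fourth. With the trend over length removed from each library, Isg15 reached 0.60 on the log2 scale (edgeR adjusted p = 0.0108), Bst2 0.91 (adjusted p = 0.00211) and Irf7 0.89 (adjusted p = 0.029), so that 8 of the 9 genes were called higher and only Ifi27 (-0.0040) was not. Ifit1 and Oasl2 came down to 2.02 and 1.32 and stayed called. This fit called 3383 of all 16730 tested genes higher and 3187 lower. Without 24m replicate 1, the same correction gave 7 genes called higher, with Isg15 at 0.49. Removing a trend over GC content, an alternative added after seeing the data, instead lowered Ifit3 to 0.45 (adjusted p = 0.0633) and Rtp4 to 0.39 (adjusted p = 0.23), both of GC contents under 50%, and brought Irf7 to a call at 0.81 (adjusted p = 0.0422), which left 4 genes called higher. That correction called 3438 of all 16730 tested genes higher and 3883 lower. Without 24m replicate 1, it left 3 of the 9 genes called higher. The origin of either trend was not tested.

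Within each age the 9 genes moved with the libraries. 24m replicate 1 was the highest of all 8 libraries for 8 genes, which is the case for 10.6% of tested genes, and 24m replicate 4 was the lowest aged library for 8 genes, as it was for 37.4% of tested genes. In the young group, replicates 1 and 4 were the top pair for 6 genes and for 28.1% of tested genes. Averaged over the 9 genes after standardization, the libraries of 6m stood at -0.08, -0.92, -0.86 and -0.30 SD and those of 24m at 1.47, 0.54, 0.51 and -0.35 SD. The last aged library was thus within the range of the young ones.

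Markers of T and NK cells, microglia and B and plasma cells were highest in 24m replicate 1. The astrocyte sum was too, at 3900 CPM there and 3895 CPM in 6m replicate 4, and the oligodendrocyte sum was 4305 and 4306 CPM in these libraries. Markers of border macrophages were at 6.92 CPM in 24m replicate 1 and at 7.70 CPM in 6m replicate 1. In 24m replicate 1, the T and NK cell list summed to 13.7 CPM, whereas 6m libraries held 5.98 to 7.11 CPM and the remaining aged ones 7.52 to 9.68 CPM, and 9 of its 12 genes were highest there. All 4 aged libraries were above all young ones in this list (exact permutation test, p = 0.0286, 0.0857 after adjustment over 12 lists), with a log2 ratio of 0.54, and of 0.36 without 24m replicate 1. That order rests on Cd4, the most abundant gene of the list, since the rest summed to 2.89 to 3.53 CPM in 6m, 2.11 to 3.25 CPM in 24m replicates 2 to 4 and 10.2 CPM in 24m replicate 1. Of its 6 tested genes, 4 were called higher and 1 lower, where all tested genes gave 25.3% and 18.3%, and the T cell receptor gene Trac was lower in each aged library (1.15 to 1.86 CPM) than in any young one (2.11 to 2.75 CPM). Microglia markers came to 1041 CPM in this library, 741 to 821 CPM in young ones and 691 to 835 CPM in the rest of 24m, and again 9 of 12 genes were highest. The log2 ratio of the microglia sum was 0.09 (exact permutation p = 0.6), and -0.02 without 24m replicate 1. Of these 12 microglia genes 2 were called higher and none lower. The chemokine receptor Cx3cr1 was at 3.06 to 5.13 CPM in young libraries and 11.1 to 15.7 CPM in all aged ones. Other genes went the other way in 24m replicates 2 to 4. Tyrobp was at 21.5 to 32.4 CPM there and 36.0 to 43.5 CPM in 6m, and Aif1 at 5.74 to 6.76 CPM and 8.78 to 9.95 CPM. In the B and plasma cell list, 9 of 10 genes were highest in 24m replicate 1, with the immunoglobulin light chain Igkc at 361 CPM and at most 9.40 CPM elsewhere. The B cell receptor component Cd79a was at 3.32 CPM there and at most 1.11 CPM elsewhere. None of the markers in these lists was at 0 in all 8 libraries, but the NK cell receptor Ncr1 was at 0 in 7. Blood markers were lower at 24m, at 1244 to 4158 CPM against 5430 to 7608 CPM (p = 0.0286 in a two-sided exact permutation test of 4 against 4 libraries, which can give no smaller value, and 0.0857 after adjustment over 12 lists). Endothelial markers summed to 152 to 196 CPM in 24m and 181 to 240 CPM in 6m (exact permutation p = 0.0571, with 1 of 12 genes called higher and 3 lower). Apart from Slc2a1, their most abundant gene, the endothelial markers summed to 90.1 to 115 CPM in 24m and 122 to 174 CPM in 6m, without overlap. Astrocyte markers summed to 2930 to 3900 CPM in 24m and 2961 to 3895 CPM in 6m (log2 ratio -0.03, exact permutation p = 0.83). Apart from Aldoc, their most abundant gene, they summed to 1140 to 1282 CPM in 24m and 784 to 920 CPM in 6m, also without overlap. Of the 10 genes 6 were called higher and 1 lower. Gfap was at 419 to 655 CPM in 24m and 177 to 217 CPM in 6m, whereas S100b was at 100.5 to 162.8 CPM and 236.8 to 362.2 CPM. Choroid plexus markers summed to 828 to 2263 CPM in 24m and 1783 to 3208 CPM in 6m (p = 0.14 in the same exact test, n = 4 per age). The choroid plexus sum is almost all Ttr, and the other 6 genes together held 37 to 56.5 CPM in 24m and 35.7 to 51.1 CPM in 6m, with 3 genes of the list called higher and none lower. The part of these cells in the levels of the 9 genes was not tested.

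**Figure D3:**
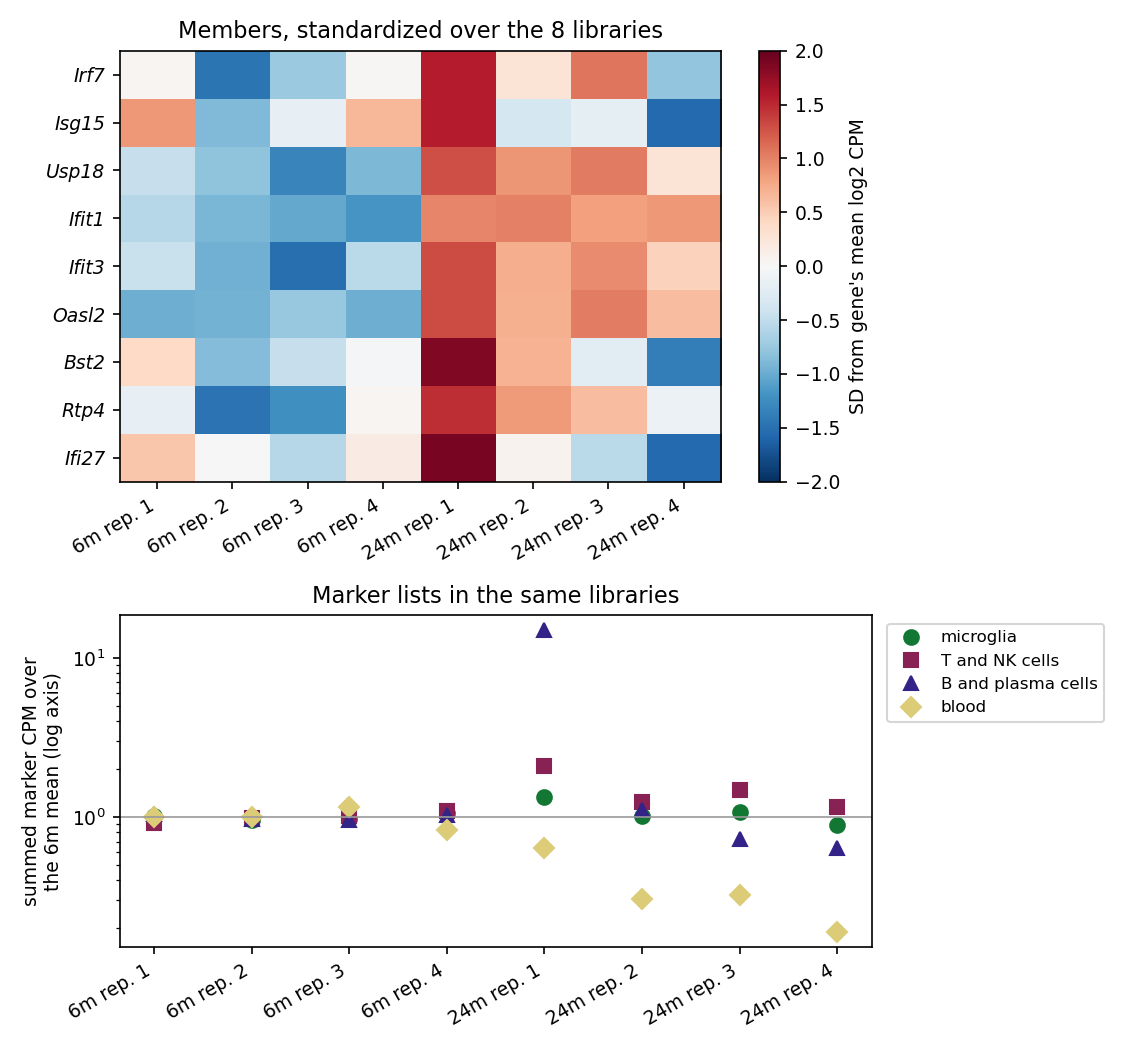
Top, log2 CPM of each gene in each library as SD from its mean over the 8 libraries, from blue (low) to red (high). Bottom, summed CPM of 4 marker lists in each library relative to the mean of 6m, on a log axis. 24m replicate 1 is the reddest column, and in it the B and plasma cell list reaches 1167 CPM.

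Over the 8 libraries, the tested genes whose log2 CPM followed the average of the 9 genes most closely were Tlr12, Sppl2b, Rps6ka1, Tuft1, Tbkbp1, Zfp213, Foxp4, Pcif1, Wwp2 and P4hb, with Pearson correlations of 0.99 for Tlr12 to 0.97 for P4hb. No gene of the lists described next was among them. When the mean of each age was subtracted first, the closest were Fcgrt, Crb3, Slc12a4, Fxyd1, Msh5, Ndufa5, Septin4, Pllp, Ephx1 and Il17rc, all at 0.99 or above. The 8 libraries share their depth and composition with every gene, and these values are given as a description. Fxyd1 and Ndufa5 had log2 fold changes of -0.75 and -1.36 with age, so genes that varied like the 9 within an age could change with age in the opposite direction.

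Other genes of the interferon system were taken from 12 lists by role, 178 genes in the table of which 143 were tested. Of these, 58 (40.6%) were called higher and 9 (6.29%) lower, where all tested genes gave 25.3% and 18.3%; the counts of each list below are read beside those shares. Their median was 0.60 on the log2 scale. Without 24m replicate 1, 53 of the 58 were called higher again and 56 in all, and 15 genes were called lower, beside 28.2% and 21.6% of tested genes. With the length trend removed, 56 were called higher and 9 lower, beside 3383 and 3187 of all 16730 tested genes. The 56 and 9 were not all the same genes as before, and each named gene that lost its call is given with that value. At the start of the pathway, the interferons themselves were near the limit of detection. Of 21 ligand genes 14 had no read in any library, which allows up to 0.029 to 0.0473 CPM per library (3 reads, counting error only). Ifnb1 had 0 reads and Ifng 6 over all libraries together, and the one ligand past the filter, Ifnz, had 63 reads in all and a log2 fold change of 0.16 (SE 0.38).

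Receptor and signalling genes rose in part. Of 12 tested genes 6 were called higher and none lower. The type I receptor chain Ifnar1 rose by 0.86 on the log2 scale (SE 0.13), with 8.66, 11.5, 11 and 9.03 CPM in 6m and 15.5, 18.3, 18.7 and 20.6 CPM in 24m. Its partner chain Ifnar2 was at 20.3 to 22.8 CPM in 6m and 16.6 to 18.3 CPM in 24m, without overlap, and at -0.28 on the log2 scale (SE 0.08, adjusted p = 0.015 by edgeR) it was under the fold threshold. Stat2, a signalling factor of the type I response, rose by 0.63 (SE 0.10). Stat3 and the kinase Jak1, the most abundant gene of the list, rose by 1.54 (SE 0.12) and 1.22 (SE 0.17). Ifnlr1, the receptor of type III interferons, rose by 0.85 (SE 0.28) from a low level of 0.153 CPM. With the length trend removed 4 of the 12 were called higher, and Ifnar1 (0.52) and Stat2 (0.43) were not.

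Among the other interferon regulatory factors, Irf8 (0.75, SE 0.21) and Irf4 (2.31, SE 0.70), both known from immune cells, were called higher, while Irf3 (-0.88, SE 0.16) and Irf5 (-0.87, SE 0.11) were lower. Irf4 was at 0.618 CPM in 24m replicate 1 and at most 0.183 CPM in the other aged libraries, its log2 fold change without that library was 1.46, and Irf8 missed the fold threshold at 0.54 without that library and the call at 0.36 with the length trend removed. Irf3, a factor activated by nucleic acid sensors, was the most abundant of this list.

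Of 15 tested sensors and adaptors, 5 were called higher and none lower. They were the RNA sensors Rigi (0.94, SE 0.13), Ifih1 (0.68, SE 0.25) and Tlr3 (1.02, SE 0.23), the DNA sensor Tlr9 (1.56, SE 0.19) and the kinase Tbk1 (0.63, SE 0.17), the most abundant of them. With the length trend removed only Tlr3 and Tlr9 of these were called higher, since Rigi was at 0.58, just under the threshold, Ifih1 at 0.28 and Tbk1 at 0.48, and Ikbke was called lower at -0.83. Of 10 restraints on the pathway, 3 were called higher and 2 lower, close to the shares over all tested genes. Adar, which edits double-stranded RNA, rose from 79.4 ± 4.76 CPM to 186 ± 18.5 CPM (SD, n = 4 each, log2 1.23, SE 0.09), and Socs3 (0.67, SE 0.18) and Samhd1 (0.65, SE 0.10) were higher too. The DNA exonuclease Trex1 (-0.69, SE 0.17) and Rnaseh2c, a subunit of RNase H2 (-1.13, SE 0.18), were lower. With the length trend removed, Trex1 was at -0.05 and Samhd1 at 0.24, neither called. Pias1 (-0.69) and Rnaseh2b (-0.68) were then called lower, so that the list held 2 higher and 3 lower.

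Of the 4 genes that attach or read Isg15, Trim25 (2.25, SE 0.24) and Herc6 (0.75, SE 0.17) were called higher, the latter not with the length trend removed (0.28). Ube2l6, the conjugating enzyme and the most abundant, gave -0.04 (SE 0.20). Paralogs of the 9 genes were called higher in 5 of 15 cases, Ifit2 (1.74, SE 0.33), Rtp1 (1.27, SE 0.39), Oas3 (1.25, SE 0.37), Ifit1bl1 (0.80, SE 0.24) and Ifit3b, the most abundant, and none lower. With the length trend removed 9 of the 15 were called higher, Oas1b (1.19), Oas1g (1.16), Oasl1 (1.24) and Ifi27l2a (1.36) being added.

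The antiviral effectors held 19 higher and 3 lower of 41 tested genes, and 16 higher and 5 lower without 24m replicate 1, where Ifi35 (-0.66) and Ifi30 (-0.59) were called lower too. Leading among those with a mean of at least 1 CPM were Dtx3l (2.09, SE 0.22), Zc3hav1 (2.01, SE 0.18), which directs viral RNA to decay, and Lgals3bp (1.32, SE 0.16). Those called lower were Ifitm1 (-0.90, SE 0.31), Ifitm2 (-0.62, SE 0.24) and Isg20 (-1.05, SE 0.23), and with the length trend removed Ifitm1 (-0.30) and Ifitm2 (0.0099) were not called. Ly6e, the most abundant, gave -0.18 (SE 0.11). The interferon-inducible GTPases had the highest median of the lists with more than 1 tested gene, 1.05, with 9 of 16 called higher and none lower. Among those with a mean of at least 1 CPM, Gbp6 (2.53, SE 0.22), Irgm2 (2.20, SE 0.27) and Gbp2 (1.49, SE 0.32) led. Irgm1, the most abundant, rose by 0.66 (SE 0.10), and was not called at 0.46 with the length trend removed. Without 24m replicate 1, Gbp2 stood at 1.05 and 10 genes were called.

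In the IFI200 family of nuclear DNA-binding proteins, 5 of 12 genes were tested and Ifi204 (1.44, SE 0.27) and Ifi207 (1.07, SE 0.22) were called higher, both under 0.5 CPM, while Mndal, the most abundant, gave -0.27 (SE 0.35). Without 24m replicate 1 Mndal was called lower (-0.67, edgeR adjusted p = 0.0462), and the median of the family was -0.15 in place of 0.63. Of 10 genes that prepare peptides for class I presentation, 2 were called higher and 2 lower, close to the shares over all tested genes. The immunoproteasome genes Psmb10, the most abundant (-1.04, SE 0.17), and Psme2 (-0.77, SE 0.17) were called lower, the transactivator Nlrc5 (1.82, SE 0.31) and the transporter Tap1 (0.72, SE 0.26) higher. The immunoproteasome subunits Psmb8 (0.31, SE 0.29) and Psmb9 (0.26, SE 0.34) were not called. They were at 20.5 and 8.82 CPM in 24m replicate 1 and at most 9.79 and 3.67 CPM in the other aged libraries. With the length trend removed, Psmb10 (-0.50), Psme2 (-0.36) and Tap1 (0.55) were not called. B2m (0.66) was then called higher and Psme1 (-0.64) lower, which gave 2 higher and 1 lower. Without 24m replicate 1, Psme1 was called lower as well (-0.71), and 1 gene of the list was called higher and 3 lower. Tap1 measured 16.3 CPM in 24m replicate 1, where the rest of the aged libraries held 6.32 to 8.41 CPM, and its log2 fold change without that library was 0.36. Among 6 tested chemokines, Cxcl10 (2.33, SE 0.38), Ccl5 (2.05, SE 0.74) and Ccl2 (1.3, SE 0.42) were called higher, and Cxcl16, the most abundant, gave 0.43 (SE 0.30). Ccl5, also a T cell marker, was at 4.22 CPM in 24m replicate 1 and at most 0.745 CPM in the other aged libraries, and its log2 fold change without that library was 0.66.

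**Figure D4:**
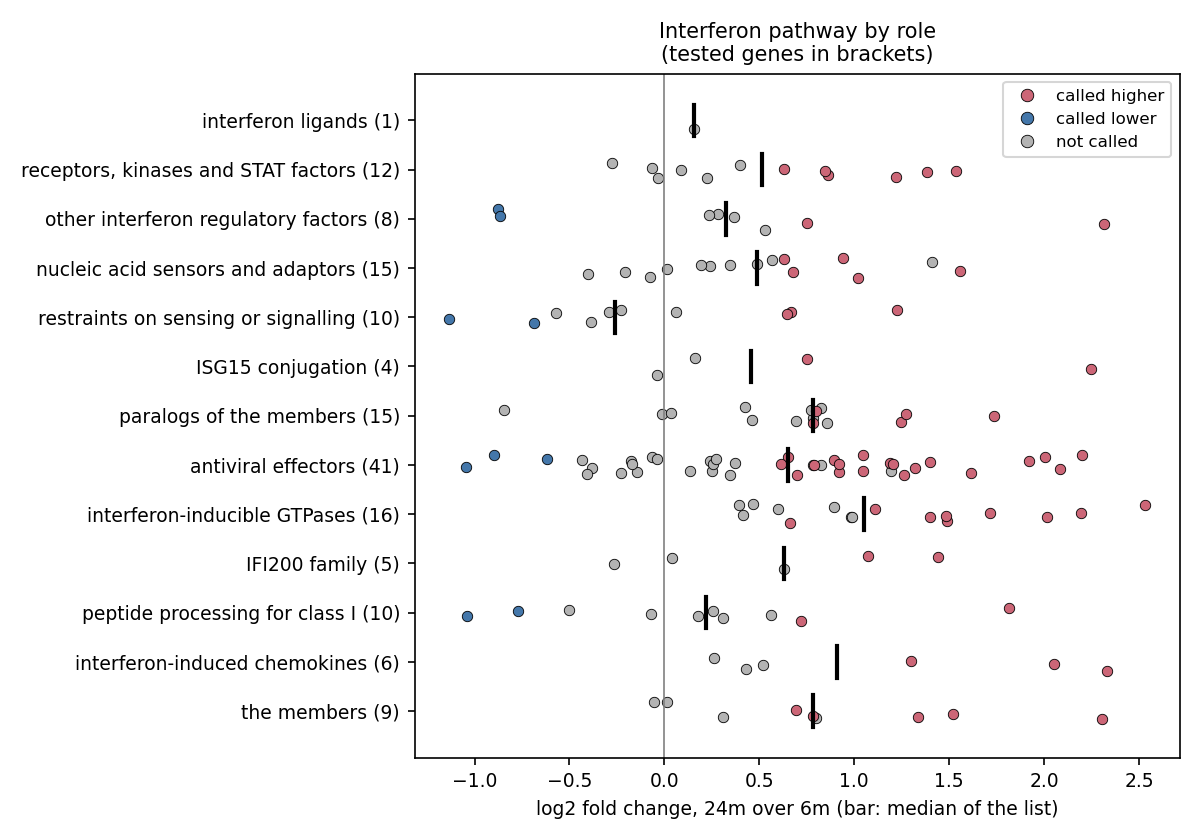
Log2 fold change of 24m over 6m (horizontal axis) of each tested gene, by role in the interferon system, with called genes in red (higher) or blue (lower) and the median of each list as a bar. The GTPases have a median of 1.05 and no gene called lower, the restraints a median of -0.26, and the 9 genes a median of 0.78.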

How the data were processed

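RNA from 4 brains of 6m and 4 of 24m male mice was measured by poly(A) sequencing of directional paired-end libraries. Deposited values are whole-number counts for each Ensembl gene, which the authors made by trimming (Trim Galore 0.4.11, per the submitters' processing notes), alignment to GRCm39 (HISAT2 2.1.0) and featureCounts, with no normalization and no pooling. Use of strand and of multimapping reads is not given in the sources used here, which affects paralogs and overlapping genes. Of 22430 genes, 22281 matched the annotation (GENCODE M39, GRCm39), and positions, lengths and promoter sequences come from it and its genome.

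Genes that exceeded 5 counts in 4 or more libraries were compared in edgeR 4.0.16 (R 4.3.3) by its quasi-likelihood test with TMM factors, age as the only term and Benjamini-Hochberg adjustment over 16730 genes, or 16592 without 24m replicate 1. A call needed an adjusted p no higher than 0.05 and a fold change of 0.58 or more in size on the log2 scale, the thresholds of the study. SE is the fold change over the root of F. Log2 CPM used a prior count of 2. Marker sums were compared by exact permutation over 70 assignments. Sequence identities came from BLAST 2.17.0. No pair of replicates agreed within sampling noise (chi-square of 8.22 to 419 per degree of freedom), and p-values measure the spread between these animals. Fits were tested on simulated data.

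Alternatives were other scalings, DESeq2 1.42.0, limma-voom (limma 3.58.1), other filters, each library left out, the replicate number as a block, offsets for trends over length or GC content, and no fold threshold. All members are described in every library. From each list, all called genes were named where there were at most 6, otherwise the 3 with the largest change among those of at least 1 CPM, and the most abundant gene. The 10 genes most like the members' average were also named. The antiviral effectors called lower, Ifi35, Ifi30, Ifnar2, Ikbke, Pias1, Rnaseh2b, Psmb8, Psmb9, Psme1, B2m, the paralogs called with the length trend removed alone and the single marker genes named fall outside these rules. They were picked after their values were seen. Values of 1 pathway gene are not reported here. The members, the pathway lists and the marker lists were chosen with earlier results of these data known.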

Additional observations from a re-analysis of the deposited data

Results flagged for a closer look

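In 42 groups of 4 values (the 9 genes and 12 marker lists at each age), a library was checked for its distance from the others by Dixon's ratio, against its 95% critical value. Chance flags about 1 in 20 groups, and 2 were found. Oasl2 in 6m had a ratio of 0.883, because replicate 3 measured 2.59 CPM and the other 3 libraries 2.30 to 2.33 CPM, a gap that is small beside the aged libraries of 5.68 CPM and more. The summed B and plasma cell markers in 24m had a ratio of 0.967, from 1167 CPM in replicate 1 against 50.2 to 86.7 CPM in the others.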

How the results depend on the processing

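Ifit1, Oasl2 and Usp18 were called higher under all 18 alternatives to the fit, with log2 fold changes of 1.98 to 2.52, 1.28 to 1.73 and 1.15 to 1.56, and Ifit3 under 17, all but the GC trend removed. Rtp4 was called under 13 and Irf7 under 5 of 18, with adjusted p of 0.00362 to 0.23 and 0.0116 to 0.16. The sign of Isg15 turned with library totals alone (0.15) and with the length trend removed (0.60), and ran from -0.31 to 0.11 as single libraries were left out. That of Ifi27 turned with limma-voom (-0.018), the replicate block (-0.017), the length trend removed (-0.0040) and the GC trend removed (-0.16), and ran from -0.15 to 0.13 with single libraries left out. Members called higher were 8 with the length trend removed, where 3383 of all 16730 tested genes were. They were 4 to 6 with single libraries left out, and 7 with the length trend removed and without 24m replicate 1. On those 7 libraries, DESeq2 after quantile normalization called 1 lower, Isg15 at -0.61 (adjusted p = 0.00924). Pathway genes called higher were 36 where at least 1 CPM was required, with 95 tested. Those called lower were 5 with library totals alone and 6 to 15 with single libraries left out, 15 without 24m replicate 1. All genes called lower were 1746 with library totals alone, which moved the median of all genes to 0.21, and 4999 by adjusted p alone. With library totals alone, the log2 ratios of marker sums were 0.31 for microglia, -0.25 for pericytes and smooth muscle, 0.19 for astrocytes, 0.28 for oligodendrocytes and 0.28 for meninges. With TMM factors they were 0.09, -0.47, -0.03, 0.06 and 0.06 in the same order, so the sign of the astrocyte ratio turned. Causes were not tested. The labels do not say whether equal replicate numbers pair animals. Deviations of equal numbers correlated at -0.35 to 0.27, and 2 of 8 libraries correlated best with their own number. So few libraries cannot decide whether equal numbers were handled together. With the replicate block the same 5 of the 9 genes were called. Ifit1, at 16 to 28 reads per young library, is limited most by depth.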

Other observations

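The ISRE letters that 7 of the 9 genes carry were set beside the calls of all genes. Of 495 other tested genes with a match in the 250 bases before their start, 24.8% were called higher and 18.8% lower at 24m, with a median log2 fold change of -0.01. Over all 16668 other tested genes with a promoter sequence these shares were 25.3% and 18.3%. The GAS letters gave 23.9% and 18.3% of 1086 genes. By role, an ISRE match was present in 9 of 12 IFI200 genes, 11 of 21 ligands, 8 of 16 paralogs of the members, 6 of 18 inducible GTPases and 6 of 43 antiviral effectors. Of the other lists, the sensors held 2 of 16, the receptors and kinases 1 of 12, the regulatory factors and the chemokines 1 of 8 each, and no match was found in peptide processing (10 genes), restraints (10) or ISG15 conjugation (4).

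Border macrophage markers summed to 4.82 to 6.92 CPM in 24m and to 6.60 to 7.70 CPM in 6m (p = 0.0857 in the same two-sided exact permutation test), with 2 genes of the list called higher and 2 lower. Pericyte and smooth muscle markers were at 121 to 159 CPM and 177 to 239 CPM (exact permutation, p = 0.0286 and 0.0857 adjusted over 12 lists), a sum carried by Vtn (75.3 to 117 and 124 to 164 CPM). In that list 3 genes were called lower and 2 higher, among them Pdgfrb at 10.5 to 15.0 CPM in 24m and 5.81 to 7.25 CPM in 6m. Neuron markers were at 4087 to 4255 CPM and 3606 to 4014 CPM (exact permutation, p = 0.0286 and also 0.0857 adjusted), with 4 genes called higher and 1 lower.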
